A study of Mus musculus with 2 samples.

Results

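Ly6a, Klk8, Vgf and Plscr2 are 4 of the 32285 genes measured in single GL261 cells, and they were singled out because their levels fell most when the cells grew as neurospheres. That fall is what chose them, so the difference between the cultures is given as a description, with no test. GL261 is a mouse glioma line from the C57BL/6 strain, labelled as astrocytoma. The adherent cells were kept in DMEM that held FBS at 10% and Penicillin-Streptomycin at 1%. The neurosphere cells were collected at 12 days from that medium to which B-27 (1:50) and the growth factors EGF and FGF, each at 20 ng/ml, had been added. Both cultures were trypsinized and frozen with DMSO, and the neurospheres were also triturated. Each culture gave 1 library, so culture, library and handling cannot be told apart, and every interval below is a 95% interval that covers counting error only. After filtering, 5051 adherent cells (median 8260 UMIs) and 4276 neurosphere cells (median 13198.5 UMIs) were kept. Of the 8 astrocyte markers listed, adherent and neurosphere levels were 370.4 and 80.5 CPM (UMIs scaled to the library total) for Slc1a3 and 160.7 and 254.6 CPM for S100b, while Gfap had 30 and 27 UMIs in all and Aqp4 had none.

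The 4 genes come from unrelated families. Ly6a encodes Sca-1, a lipid-anchored cell surface protein of the Ly6/uPAR family that marks mouse stem and progenitor cells in several tissues and is inducible by interferon. Klk8 encodes neuropsin, a secreted serine protease of the kallikrein family that cleaves adhesion proteins such as L1cam and is best known from the hippocampus. Vgf encodes a secreted precursor of neuropeptides, related to the granins and induced by neurotrophins and by neuronal activity, and Plscr2 encodes a member of the phospholipid scramblase family of membrane proteins.

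The genes lie on 4 chromosomes of the GRCm38 (mm10) build. Ly6a (ENSMUSG00000075602) spans chr15:74994877-74998031 on the minus strand, Klk8 (ENSMUSG00000064023) chr7:43797577-43803826 on the plus strand, Vgf (ENSMUSG00000037428) chr5:137026392-137033351 on the plus strand and Plscr2 (ENSMUSG00000032372) chr9:92275602-92297752 on the plus strand. The reads of this assay come from the 3′ ends of transcripts, and 0% of the 91-base windows in the last 400 bases of any annotated transcript of the 4 genes occurred in a transcript of another gene. Their counts are therefore not shared with a close copy in this annotation. Klk8 is overlapped at its 5′ end by 2310002F09Rik, an antisense RNA gene whose start lies 0.381 kb inside Klk8. The sequence at the Klk8 start is shown because no promoter window was matched in RefSeq for the other genes. Klk8 and the gene opposed to it there were both lower, as described with the neighbouring genes. The window is that of the Klk8 start only and does not reach the start of 2310002F09Rik. It is the RefSeq promoter window (GRCm38.p6, chr7:43797327-43797626, plus strand), 250 bases before to 50 bases after the start, written 5′ to 3′ with the GC box (GGGCGG, searched on both strands) in capitals.

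Klk8: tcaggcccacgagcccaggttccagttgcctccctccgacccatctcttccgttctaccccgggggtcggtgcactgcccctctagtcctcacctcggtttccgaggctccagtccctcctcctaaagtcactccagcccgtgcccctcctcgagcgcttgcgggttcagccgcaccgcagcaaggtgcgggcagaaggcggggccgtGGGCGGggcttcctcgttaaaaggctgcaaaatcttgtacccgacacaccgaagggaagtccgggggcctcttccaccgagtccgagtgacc

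The window held 1 GC box, whose first base is at -42 from the start, and 1 E-box (CANNTG). The GC box occurred in 35.7% and the E-box in 72.3% of the 32851 windows of this length in RefSeq. The letters of a TATA box (TATAAA), an AP-1 site (TGANTCA), a TEAD site (GGAATG), a CRE (TGACGTCA), a CCAAT box (CCAAT) and a GAS element (TTCNNNGAA) were not in it, on either strand. Those letters occurred in 13.6%, 7.81%, 14.7%, 1.79%, 37.4% and 8.30% of the windows, in the same order.

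Of Ly6a, 2719 UMIs were counted in the adherent library and 28 in the neurosphere library. Over all kept genes this was 58.7 CPM (56.5 to 61.0) against 0.431 CPM (0.286 to 0.623), a log2-fold change of -7.09 (-7.68 to -6.56). Klk8 had 3062 and 63 UMIs, which was 66.1 CPM (63.8 to 68.5) against 0.970 CPM (0.745 to 1.24), a log2-fold change of -6.09 (-6.48 to -5.73). For all 4 genes the 2 libraries' intervals lay far apart, and what was left in neurosphere cells ran from 0.734% of the adherent level for Ly6a to 2.70% for Plscr2. Vgf had 3174 and 79 UMIs, 68.6 CPM (66.2 to 71.0) against 1.22 CPM (0.963 to 1.52), and its log2-fold change was -5.82 (-6.16 to -5.49). Plscr2 had 5116 and 194 UMIs, 110.5 CPM (107.5 to 113.6) against 2.99 CPM (2.58 to 3.44), and its log2-fold change was -5.21 (-5.42 to -5.0). Over all 14654 genes with at least 50 UMIs, 0.334% were at least 32-fold lower in neurosphere cells, a group that holds these 4 by construction.

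Ranked by the log2 ratio of CPM + 1 among 13335 genes with at least 100 UMIs, Ly6a, Klk8, Vgf and Plscr2 held ranks 2 to 5, with values from -5.38 to -4.81. S100a4, a calcium-binding protein gene, was ahead of them at -6.26, and Prph, which encodes the intermediate filament peripherin, was just behind at -4.79. The ranks after that were held by Ly6c1, Tead4, Tm4sf1 and Hhla1. Without the added 1 CPM, Ly6c1 fell further than any of the 4 genes, from 1286 UMIs to 3, a log2-fold change of -9.23 (-11.51 to -7.68).

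**Figure D1:**
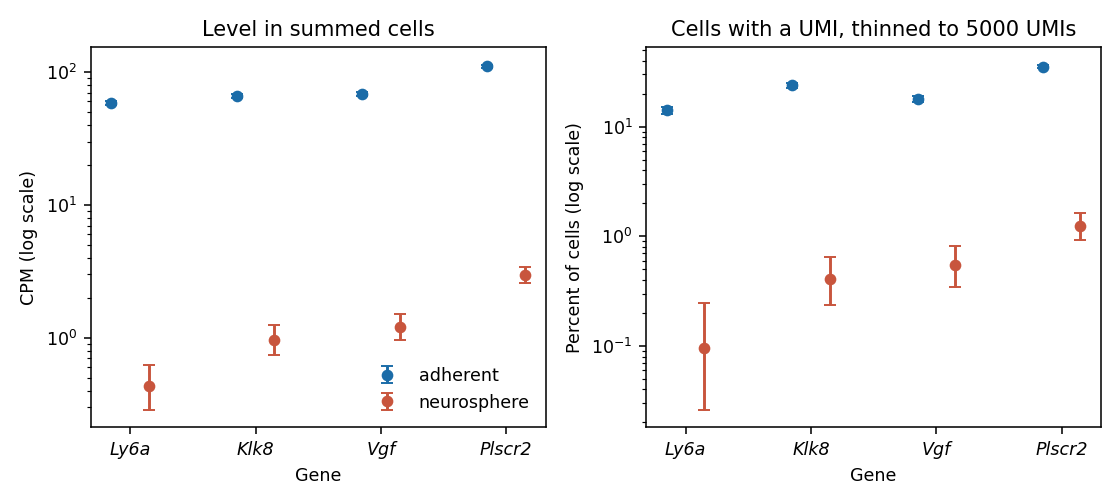
Level of each gene (left, CPM on a log scale) and percent of cells with at least 1 UMI after each cell was thinned to 5000 UMIs (right, log scale), with points for the adherent and neurosphere libraries and bars for 95% counting intervals. Adherent levels run from 58.7 to 110.5 CPM and neurosphere levels from 0.431 to 2.99 CPM, with no overlap of the intervals.

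Because neurosphere cells were sequenced more deeply per cell, shares of cells were compared after drawing 5000 UMIs from each cell, with shallower cells left out. Ly6a was detected in 14.1% of 4464 adherent cells (13.1 to 15.1) and in 0.0953% of 4196 neurosphere cells (0.0260 to 0.244). Klk8 was detected in 24.0% (22.7 to 25.2) against 0.405% (0.236 to 0.648). Vgf was detected in 18% (16.9 to 19.1) against 0.548% (0.348 to 0.821), and Plscr2 in 35.4% (34.0 to 36.8) against 1.24% (0.927 to 1.62). The fall therefore went with fewer cells in which a UMI was found, and in neurosphere cells most detections were of a single UMI. Without thinning, the shares of adherent cells were 19.1%, 34.8%, 24.4% and 47.9% in the same order, and those of neurosphere cells 0.0935%, 0.842%, 1.5% and 2.88%. No cell type that should lack these genes was present in either library, so the share of such detections that free RNA could give was not measured.

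The adherent cells did not hold the 4 genes evenly. Ly6a was the most concentrated: the 10% of thinned adherent cells with most UMIs of it held 85.7% of them, against 76.7% for Vgf, 58.5% for Klk8 and 49.7% for Plscr2. Up to 59 UMIs of Ly6a and 38 of Vgf were found in a single adherent cell, but at most 10 of Klk8 and 15 of Plscr2. Ly6a was absent from 85.9% of thinned cells where a Poisson distribution of the same mean gives 75.1%, and Vgf from 82.0% against 71.0%. For Klk8 the values were closer, 76.0% against 71.4%, and for Plscr2 they were 64.6% against 56.5%.

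The excess variance, which is the variance beyond Poisson divided by the squared mean, was 11.5 for Ly6a and 6.98 for Vgf. These were the ranks 7 and 14 among 5951 genes with a mean of at least 0.1 UMI per thinned adherent cell, whose median was 0.172. Klk8 at 1.46 (rank 148) and Plscr2 at 1.27 (rank 188) varied less between cells, though still more than most genes. Ly6a and Vgf were thus restricted to fewer adherent cells with more UMIs each, while Klk8 and Plscr2 were spread more widely. Among Ly6a-positive thinned cells the mean was 2.04 UMIs, among Klk8-positive cells 1.41.

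**Figure D2:**
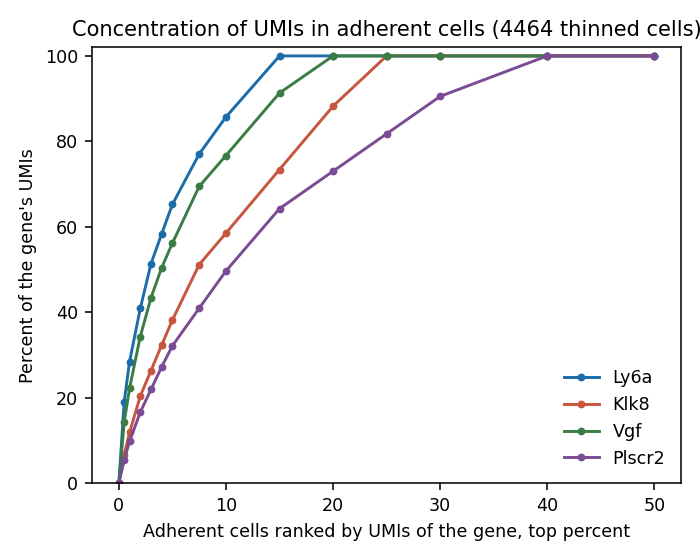
Percent of each gene's UMIs (y axis) held by the top percent of 4464 thinned adherent cells ranked by that gene (x axis), with a line for each gene. The top 10% of cells hold 85.7% of Ly6a, 76.7% of Vgf, 58.5% of Klk8 and 49.7% of Plscr2 UMIs.

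Taken over all 4 genes, adherent cells held them together about as often as the product of their shares gives, while single pairs lay above or below it. Of 4464 thinned cells, 2942 (65.9%) had a UMI of at least 1 of the genes, against 2919.1 by the product. At least 2 of the genes were found in 987 cells (22.1%) against 993.4, and all 4 in 8 cells against 9.60. Vgf and Plscr2 were found together least often against the product of their shares, in 169 cells where the product gives 284.2, a ratio of 0.595. Plscr2 was detected in 21% of Vgf-positive cells and in 38.5% of Vgf-negative cells, and among all genes detected in at least 5% of adherent cells Vgf had the lowest correlation with Plscr2 (Pearson r = -0.15 over 4464 cells). Ly6a and Vgf also shared few cells, 72 against 113.1 (ratio 0.636). Ly6a and Klk8 shared 190 cells against 150.8 (ratio 1.26), Klk8 and Plscr2 440 against 378.7 (ratio 1.16), Ly6a and Plscr2 248 against 222.6 (ratio 1.11), and Klk8 and Vgf 182 against 192.5 (ratio 0.946). All correlations between the 4 genes lay between -0.15 and 0.08, and all cells came from 1 library with sparse counts, so the weak values are no finding.

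Genes whose pattern over adherent cells was most like each of the 4 were taken among 7964 genes detected in at least 5% of cells. For Ly6a the first was Ly6c1, another Ly6 surface protein encoded nearby (start at -50.8 kb along the Ly6a strand; r = 0.47), followed by Tmsb4x (0.28), Ly6e (0.22), Cryab (0.19) and Rgcc (0.18). Ly6c1 was detected in 33.1% of Ly6a-positive cells and in 4.95% of Ly6a-negative cells, so 208 cells held both where the product of shares gives 56.1. For Vgf the first were Cited1 (0.29), Mt3 (0.23), AA467197 (0.23), Il11 (0.22) and Timp1 (0.21). Mt3, a metallothionein, was detected in 47.1% of Vgf-positive and 27.6% of Vgf-negative adherent cells. For Plscr2 the first were its paralogue Plscr1 (0.22), F3, which encodes tissue factor (0.22), Gpx4 (0.17), Mbp (0.17) and Moxd1 (0.14). Klk8 had no close partner: Ckb (0.11) and Taldo1 (0.10) alone reached 0.1.

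Clustering the adherent cells without the 4 genes gave 11 clusters, named here by their leading genes. The smallest, 49 shallow cells led by Pcdh9, is left out of the orders that follow. The variance over thinned adherent cells was 4.31 times the mean for Ly6a and 3.39 times for Vgf. The cluster intervals cover counting error only, so they are narrower than this spread between cells would give. Ly6a was highest in a cluster of 185 cells led by Cd81, Cnp and Rgcc, at 171.6 CPM (152.2 to 192.7). The next cluster, led by Ube2c, Gm13889 and H2afx, had 79.2 CPM (73.2 to 85.6), and the cluster led by Nusap1, Ccnf and Kifc1 was lowest at 18.3 CPM (14.8 to 22.4). The Cd81 cluster also held the highest level of Ly6c1, 57.2 CPM, where the Nusap1 cluster had 10.4 CPM. Clusters led by Mt3 and by Ubtd1 had 32.3 and 31.5 CPM of Ly6a, which did not differ beyond their intervals.

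Vgf followed another order. It reached 158.5 CPM (146.8 to 170.9) in the 613 cells led by Mt3, Slc30a4 and Cited1 and 157.0 CPM (146.3 to 168.3) in the 522 cells led by Nusap1, Ccnf and Kifc1, and these did not differ beyond their intervals. The next was the Ube2c cluster at 64.3 CPM (58.9 to 70.1), and the Gm43689 cluster was lowest at 20.3 CPM (15.5 to 26.0). Mt3 itself stood at 462.3 and 307.3 CPM in the first and second of the Vgf-rich clusters, so Vgf and Mt3 were high in the same clusters. Those clusters were low in Plscr2, at 86.7 and 78.7 CPM, where the Gm43689 cluster was lowest at 77.1 CPM. At a clustering resolution of 0.8 the highest Vgf level of a cluster was 90.5 CPM, in 1222 cells.

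Plscr2 was highest in the 673 cells led by Col2a1, Hhla1 and Rbms3, at 169.5 CPM (158.2 to 181.4), followed by the histone gene cluster at 129.3 CPM (120.8 to 138.3) and the Pif1 cluster at 128.1 CPM (119.0 to 137.7), which did not differ beyond their intervals. Plscr1, at 218.7 CPM, and F3, at 933.8 CPM, were also highest in the Col2a1 cluster. Klk8 was 84.9 CPM (76.9 to 93.4) in the Col2a1 cluster, 77.2 CPM (71.3 to 83.5) in the Ube2c cluster and 39.2 CPM (32.5 to 46.9) in the Gm43689 cluster, and the first and second of these did not differ beyond their intervals.

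**Figure D3:**
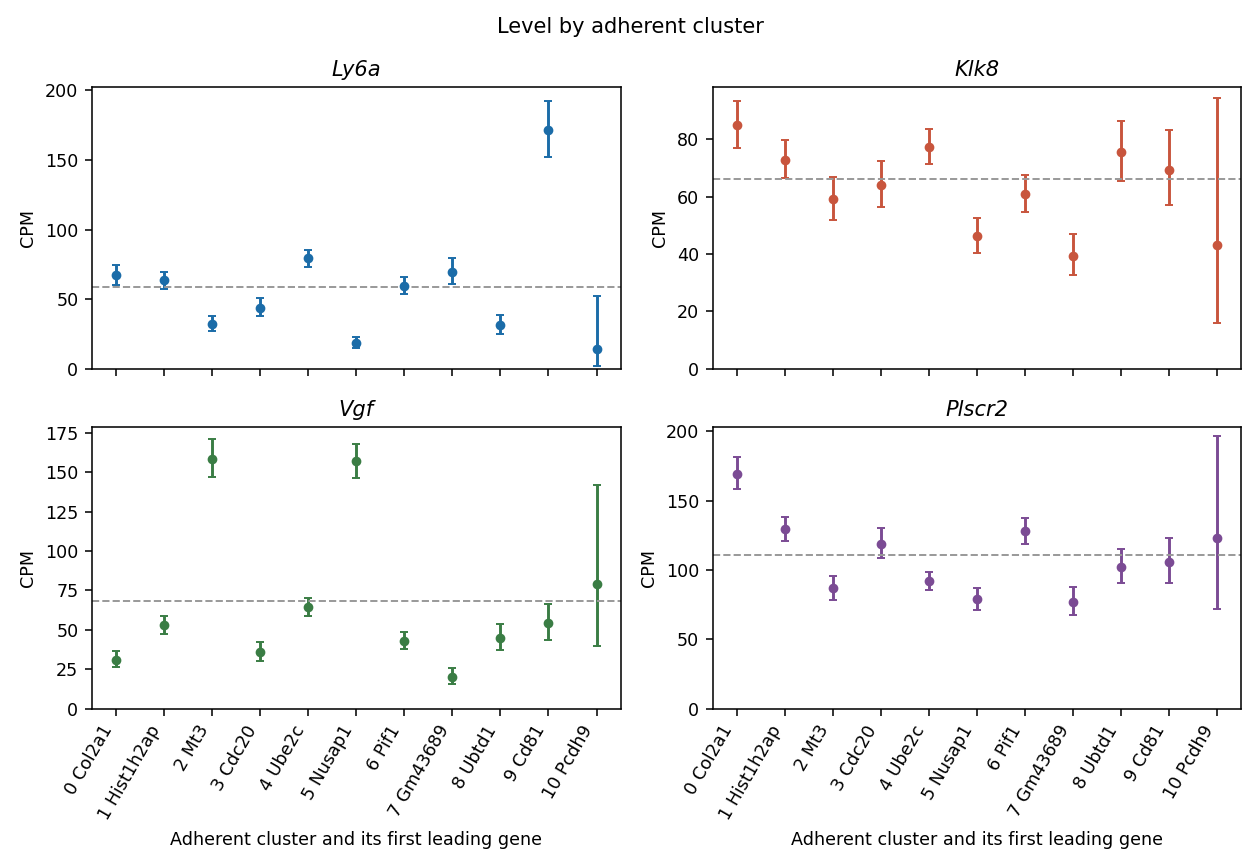
Level of each gene (CPM, y axis) in the 11 adherent clusters (x axis, number and first leading gene), with points for the summed cells of a cluster, bars for 95% counting intervals and a dashed line for all adherent cells. Ly6a peaks at 171.6 CPM in the Cd81 cluster, Vgf at 158.5 and 157.0 CPM in the Mt3 and Nusap1 clusters and Plscr2 at 169.5 CPM in the Col2a1 cluster.

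Ly6a is an interferon-inducible gene, so the 4 genes were also read against the summed share of 30 interferon-stimulated genes in each adherent cell. From the lowest to the highest quartile of that share (1116 cells each), Ly6a was at 35.1 and 97.3 CPM, Plscr2 at 91.2 and 147.5 CPM and Klk8 at 59.7 and 81.5 CPM. Vgf ran the other way, at 79.7 and 42.3 CPM. Between the lowest and highest quartile of 20 G2/M genes, the genes of mitosis, the levels were closer, at 61.3 and 55.2 CPM for Ly6a, 72.8 and 66.1 CPM for Klk8, 72.2 and 75.8 CPM for Vgf and 136.4 and 118.1 CPM for Plscr2. All 30 interferon-stimulated genes were measured. Between the cultures, 18 of them were at least 2-fold lower in neurosphere cells and 0 at least 2-fold higher, with a median log2-fold change of -1.34 against 0.32 over all genes, where 11.7% of all 14654 genes were lower by that fold and 21.7% higher. Cxcl10 (-3.58), Ifitm3 (-3.42) and Bst2 (-3.02) fell most in the list, and Irf1 (-0.02) and Stat2 (-0.03) stayed near their adherent level.

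The other members of each gene's family or pathway gave mixed values. Their counts are read beside the shares of all genes, 11.7% at least 2-fold lower and 21.7% at least 2-fold higher, and the all-gene median of 0.32. A gene of low count that passed 50 UMIs through 1 library had to differ in that direction. In the Ly6/uPAR family, 11 of 37 listed genes had at least 50 UMIs: 5 were at least 2-fold lower in neurosphere cells and 2 at least 2-fold higher. Without Ly6a, which was chosen for its fall, 4 of 10 were lower. Beside Ly6a and Ly6c1, the lower ones were Ly6e (-2.92), Lynx1, a modulator of nicotinic receptors (-3.11), and Plaur, the urokinase receptor (-2.48). Psca rose from 6 to 662 UMIs (6.30, interval 5.17 to 7.75) and Lypd3 from 5 to 54 (2.94). Psca and Lypd3 passed the filter through the neurosphere library, and Ly6c1 and Lynx1 (271 and 44 UMIs) through the adherent library, so nothing is read from these counts. Ly6g6d (0.93), Cd59a (0.30), Cd59b (0.11) and Lypd6 (-0.57) were within 2-fold.

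Of 19 kallikreins, 3 had at least 50 UMIs: Klk8 itself, Klk10 and Klk14. Klk10 and Klk14 had few or no neurosphere UMIs and reached that count through the adherent library. A gene that passes that way counts as lower, so nothing is read from their number. Klk10 went from 220 UMIs to 3, a log2-fold change of -6.68 (-8.97 to -5.12), and Klk14 from 115 to 0, which a floor of 3 counts per library puts at -5.75 or lower. Among 6 measured substrates and inhibitors of neuropsin, the cell adhesion gene L1cam (-4.16) and fibronectin, Fn1 (-2.37), were lower. The receptor gene Ephb2 (3.69) and the protease inhibitor Serpinb6a (1.63) were higher, and tissue plasminogen activator, Plat (0.20), and Nrg1 (-0.59) were within 2-fold.

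Of 15 genes in a list of granins, genes of their processing and release, and the receptor genes C1qbp and C3ar1 for a Vgf peptide, 6 were measured, and Vgf, chosen for its fall, was the only one at least 2-fold lower. The amidating enzyme gene Pam rose by 1.36 on the log2 scale, while Pcsk1n (0.98), Cpe (0.58), Scg5 (-0.10) and C1qbp (-0.42) stayed within 2-fold. In the neurotrophin list, which holds ligands, receptors and the signalling genes Creb1 and Crtc1, 2 of 7 measured genes were at least 2-fold lower and 1 higher, with a median of 0.19 against 0.32 over all genes, where 11.7% were lower and 21.7% higher. The receptor gene Ngfr (-3.42) and the ligand gene Bdnf (-1.28) were lower, and the receptor gene Ntrk3 (2.17) was higher. Over single adherent cells Vgf showed little relation to Bdnf (r = -0.01), whose counts were sparse. Of 15 activity-induced immediate early genes, 7 were at least 2-fold higher and 3 lower, with a median of 0.90 against the same background. Nr4a3 (4.82), Btg2 (2.53) and Nr4a1 (2.00) were higher and Klf4 (-1.79), Atf3 (-1.16) and Dusp1 (-1.09) lower.

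Among 19 scramblases and flippases, which move phospholipids between membrane leaflets, 14 were measured, 3 of them at least 2-fold higher and 2 lower, or 1 of 13 lower without Plscr2. These counts are near the shares of all genes, 21.7% and 11.7%, and are no result about the list. Plscr2 and the flippase Atp8a1 (-1.08) were lower, and Ano3 (3.96), Ano4 (2.39) and the flippase subunit Tmem30a (1.52) were higher. The other scramblases of the Plscr family were within 2-fold, Plscr1 at -0.69, Plscr3 at 0.70 and Plscr4 at -0.87. Plscr1 went from 142.8 to 88.4 CPM and was detected in 62.3% of adherent and 59.5% of neurosphere cells without thinning. Of markers of other cell types, the 8 immune markers summed to 7.52 CPM in the adherent and 1.77 CPM in the neurosphere library (Ptprc 1 and 0 UMIs), the 8 endothelial markers to 12.3 and 7.21 CPM with Cdh5 at 0 in both, and the 6 fibroblast markers to 9.16 and 392.1 CPM, of which Col1a1 made up 2.51 and 329.0 CPM. Of the other fibroblast markers, Dcn went from 1 to 3606 UMIs, Lum from 0 to 143, Pdgfra from 306 to 316 (-0.44), Col1a2 from 1 to 23 and Thy1 from 0 to 7. Their part in the falls was not tested.

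The genes around each of the 4 fell to different extents. Within 100 kb of Ly6a, Ly6c1 (-9.23) and Ly6e (-2.92) were measured, and both were lower. Around Klk8, the antisense 2310002F09Rik went from 1035 to 28 UMIs (-5.70) and Klk10 fell likewise. The sources used here do not state whether counting used strand. Whether reads of Klk8 and of its antisense partner were told apart where they overlap was therefore not known. That overlap is at the 5′ end of Klk8, while the reads of this assay come from 3′ ends. In thinned adherent cells 2310002F09Rik was detected in 14.4% of Klk8-positive and 8.93% of Klk8-negative cells (r = 0.09), so 154 cells held both where the product of shares gives 109.5. Klk10 was detected in 2.34% and 2.06% of them.

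Of the neighbours of Vgf reported here, 4933404O12Rik (-1.63) and Ap1s1 (-1.03) were lower by at least 2-fold, and Fis1 (-0.45), Znhit1 (-0.45), Plod3 (-0.24) and Trim56 (-0.18) were within 2-fold. Ap1s1, a subunit gene of a clathrin adaptor, was detected in 82.9% of Vgf-positive and 73.6% of Vgf-negative adherent cells (r = 0.13). Plscr2 had 1 measured neighbour, Plscr1 (-0.69), detected in 58.4% of Plscr2-positive and 40.5% of Plscr2-negative adherent cells. Ly6c1, 2310002F09Rik and Klk10 had few neurosphere UMIs and reached 50 UMIs through the adherent library. A gene that passes that way counts as lower, so nothing is read from the number of neighbours that fell. At the Vgf locus 4 neighbours, and at the Plscr2 locus Plscr1, stayed within 2-fold.

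**Figure D4:**
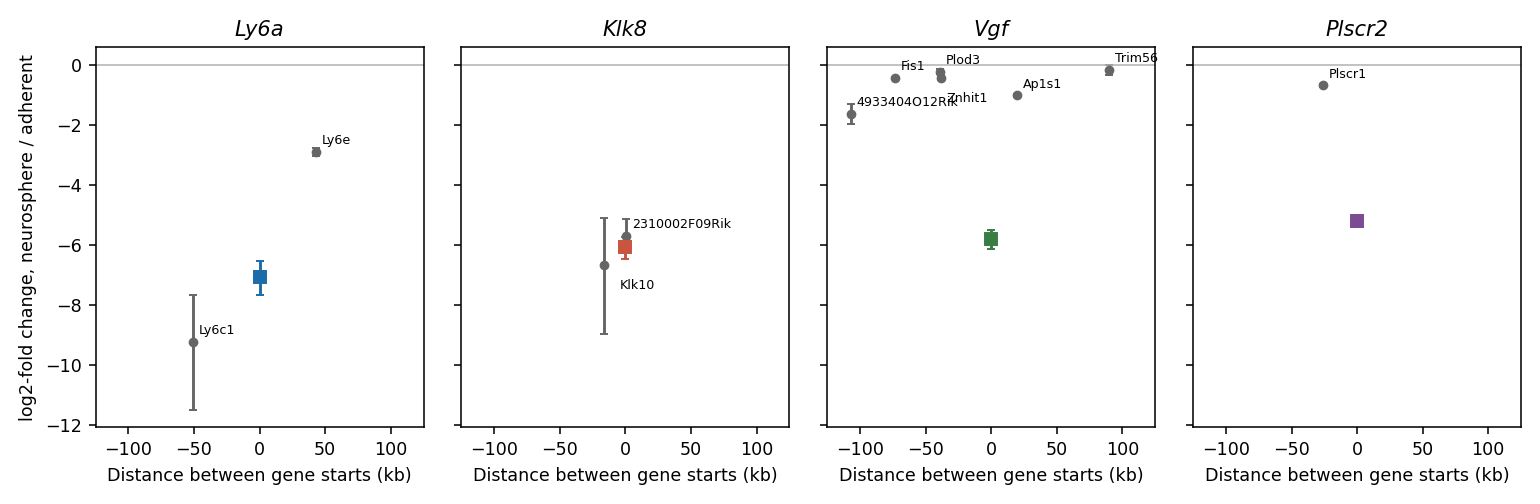
Log2-fold change (neurosphere over adherent, y axis) of the reported genes with at least 50 UMIs within 100 kb of each gene, against the distance between gene starts in kb along the strand of the gene named above the panel (x axis), with squares for the 4 genes, grey circles for neighbours and bars for 95% counting intervals. Ly6c1 lies at -9.23 and 2310002F09Rik at -5.70, while Plscr1 lies at -0.69 beside Plscr2 at -5.21.

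The neurosphere cells that still held the 4 genes were few. Without thinning, Ly6a was found in 4 of 4276 cells, Klk8 in 36, Vgf in 64 and Plscr2 in 123, and 214 cells (5.00%) had at least 1 of the genes. Of these, 13 cells held 2 of the genes, against 3.57 by the product of the shares, and none held 3 or 4. These cells were deeper than the rest, with a median of 18117 UMIs against 12979.5 in cells with none of the genes, so counts per cell follow depth in part. After thinning to 5000 UMIs, 94 of 4196 cells (2.24%) held at least 1 of the genes and 2 held 2 of them.

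The 28 UMIs of Ly6a came from 4 cells with 17, 8, 2 and 1 UMIs. The first of these had 14289 UMIs in all, 3 of Ly6c1 and 2 of S100a4, and the second had 35677 UMIs in all and 3 of S100a4. Both also held Plscr2, with 2 and 1 UMIs. They had 2 and 1 UMIs of Krt8, a keratin gene found in 75.3% of neurosphere cells, and neither barcode was called in the adherent library. The other 2 cells had no UMI of S100a4 or Ly6c1. Nearly all residual Ly6a thus lay in 2 cells: without the cell with 17 UMIs, chosen after the values were seen, its log2-fold change was -8.44.

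Klk8, Vgf and Plscr2 were left as scattered low counts. Klk8 had 14 of its 63 UMIs in 1 cell and 5 or fewer in any other, Vgf had at most 5 UMIs in a cell and 56 of its 64 cells had 1, and Plscr2 had at most 6 and 82 of its 123 cells had 1. At least 3 UMIs of the gene were found in 4 cells for Klk8, 4 for Vgf and 18 for Plscr2, where 302, 373 and 654 adherent cells reached that count. The neurosphere cell with 14 UMIs of Klk8 had 149 UMIs of Krt8, so a high Klk8 count and a gene of the neurosphere cells were seen in the same barcode. No barcode of the 40 neurosphere cells with Ly6a, with 2 of the genes or with at least 3 UMIs of 1 gene was called in the adherent library. Only 11 of the 4276 kept neurosphere barcodes were called there at all, so nothing is read from this. Mixing of cells or of free RNA was not tested.

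The remaining UMIs were not spread evenly over the 11 neurosphere clusters, made without the 4 genes. The 455 cells led by Zbp1, Ifit3 and S100a6 held 52.4% of the Klk8 UMIs, 32.9% of Vgf and 35.6% of Plscr2, and the 304 cells led by Wnt7b, Prss56 and Fosl1 held 31.7%, 30.4% and 16.5%. In the Zbp1 cluster Klk8 was at 5.55 CPM (3.82 to 7.79), but 14 of its 33 UMIs there came from 1 cell. Without that cell, left out after the values were seen, Klk8 was at 3.21 CPM (1.93 to 5.02) with 38.8% of its UMIs, and the Wnt7b cluster at 2.82 CPM (1.72 to 4.35) with 40.8%, so the order of the clusters was not resolved. In the Zbp1 cluster Vgf was at 4.37 CPM (2.86 to 6.40) and Plscr2 at 11.6 CPM (9.03 to 14.7). Klk8 had 0 UMIs in the clusters led by Comp, Sult1e1, Arhgef39 and Artn, of 622, 501, 486 and 210 cells. After thinning, Plscr2 was detected in 4.88% of the Zbp1 cluster and in 0.342% of the Comp cluster, the largest. The Zbp1 cluster had 165.3 CPM of the interferon-stimulated gene Ifit3 and 211.2 CPM of Rsad2, against 21.4 and 38.1 CPM in the Comp cluster, and it kept 6085.9 CPM of Krt8. The Wnt7b cluster, which also held many of the remaining UMIs, had 22.3 CPM of Ifit3 and 35.5 CPM of Rsad2, close to the Comp cluster. The 81 cells led by Cox6a2, Nupr1 and Tenm4 had 16.2 CPM of Plscr2 (9.06 to 26.7). Ly6a stood there at 18.3 CPM, all of it from the cell with 17 UMIs, so no interval is given. The Cox6a2 cluster had 105.8 CPM of Ifit3 and 153.3 CPM of Rsad2, and together with the Zbp1 cluster it held 89.3% of the Ly6a UMIs. Thinned neurosphere cells were also split by the share of interferon-stimulated genes (1049 cells per quartile). From the lowest to the highest quartile Ly6a was at 0 and 1.53 CPM and Klk8 at 0 and 3.62 CPM. Plscr2 was at 0.572 and 8.96 CPM and Vgf at 0.763 and 1.14 CPM. These levels rest on few UMIs, and a link with interferon was not tested.

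To see whether the cells that kept the genes also kept others of the adherent state, the 50 genes that fell most and the 50 that rose most, the 4 genes left out, were summed in each cell. These sets were chosen from the same libraries, so the values describe the cells only. The 50 falling genes took a median 1.49% of the UMIs of an adherent cell and 0.0662% of a neurosphere cell. Neurosphere cells with at least 1 of the 4 genes had 0.197% and those with none 0.0638%. For the 50 rising genes the order was reversed, with 1.29% in cells with at least 1 of the 4 genes, 2.00% in those with none and 0.0236% in adherent cells. Cells with Klk8 had 0.358% of the falling genes, with Vgf 0.206% and with Plscr2 0.169%, all above the cells with none and far below the adherent median.

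In 56 neurosphere cells the falling genes reached the 1st percentile of adherent cells, 0.610% of UMIs. Of these, 22 (39.3%, interval 26.5 to 53.2) held at least 1 of the 4 genes, against 192 of the other 4220 (4.55%, 3.94 to 5.22). They held 25 of the 28 Ly6a UMIs, but 11.1% of Klk8, 11.4% of Vgf and 14.9% of Plscr2 UMIs. The Ly6a UMIs came from 2 cells near that threshold, at 0.791% and 0.611%, and the other 2 cells with Ly6a were below it. At the 5th percentile of adherent cells, 0.848%, which 17 neurosphere cells reached, the order of the genes turned: those cells held 0 of the 28 Ly6a UMIs, 3.17% of Klk8, 1.27% of Vgf and 6.70% of Plscr2 UMIs. No difference between Ly6a and the other 3 genes is therefore read from these shares. Leaving out these 56 cells, a choice made after seeing the values, put the log2-fold change of Ly6a at -10.29, on 3 UMIs, and moved those of Klk8, Vgf and Plscr2 to -6.24, -5.97 and -5.42.

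**Figure D5:**
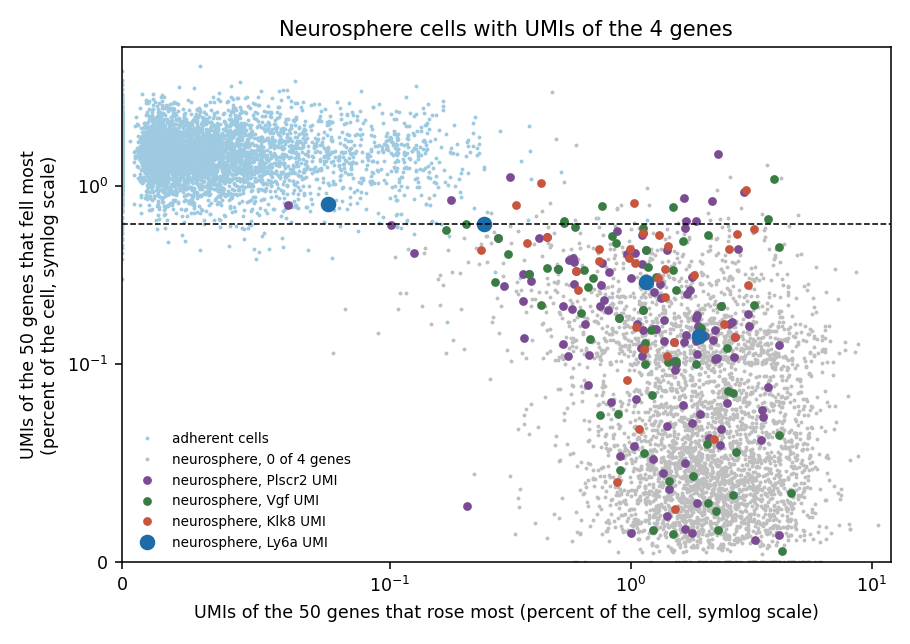
Each cell's percent of UMIs from the 50 genes that fell most (y axis) against its percent from the 50 that rose most (x axis), both on a scale that is linear below 0.1 and logarithmic above; pale blue points are adherent cells, grey points neurosphere cells without the 4 genes and coloured circles neurosphere cells with a UMI of the gene named in the key. The dashed line is the 1st percentile of adherent cells, 0.610%; 22 of the 56 neurosphere cells at or above it hold at least 1 of the 4 genes.

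In thinned neurosphere cells, those with at least 1 of the 4 genes were set against the others, a comparison of 94 with 4102 cells chosen after seeing that only 2 thinned cells held 2 of the genes. The order given is that of the log2 ratio after 10 CPM had been added to both levels. Highest in the first were Lcn2, which encodes lipocalin-2 (293.6 against 7.56 CPM), Ccl2, a chemokine gene (153.2 against 14.5 CPM), and Mt3 (100 against 8.63 CPM). Few of the 94 cells carried these levels, 9.57% for Lcn2, 4.26% for Ccl2 and 11.7% for Mt3. Lowest were Dmd, which encodes dystrophin (19.1 against 109.6 CPM), Mucl2 (1 UMI, 2.13 against 39.3 CPM) and Dock4 (12.8 against 69.5 CPM). Mucl2 was found in 1.06% of the 94 cells and 1.49% of the others, so its higher level in the others came from few cells with many UMIs. Without the added 10 CPM genes of lower count came before Dmd and Dock4, such as Myrf (0 against 23.6 CPM) and Nts (1 UMI, 2.13 against 27.3 CPM). Tm4sf1, an adherent-side gene, was found in 39.4% of the 94 cells and in 10.6% of the others, and Plscr1 in 71.2% of Plscr2-positive and 31.4% of Plscr2-negative neurosphere cells. Over neurosphere cells the genes most like Plscr2 were Anxa5 (r = 0.17), Plscr1 (0.16), Tm4sf1 (0.16), Selenop (0.15) and Enpp2 (0.13). Those most like Vgf were Reln (0.15), Ubash3b (0.14), Gm13889 (0.13), S100a6 (0.12) and Lgals3 (0.12), and no gene reached 0.1 for Ly6a or Klk8 among the 8739 genes compared, those detected in at least 5% of neurosphere cells. Some genes found in fewer cells had higher values on very few cells: Ly6c1 with Ly6a (0.83, 1 cell with both), S100a4 (0.14) and Ly6e (0.13) with Ly6a (2 cells each), 2310002F09Rik with Klk8 (0.13, 1 cell) and Mt3 with Vgf (0.21, 7 cells).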

How the data were processed

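Single-cell RNA-seq of 1 adherent and 1 neurosphere library was analysed. The authors deposited raw UMI counts per gene and cell, which the submitters' processing notes credit to Cell Ranger 7.0.1 and the mm10 build. The counts held 5764 adherent and 4951 neurosphere barcodes. Here 13 mitochondrial and 101 ribosomal protein genes were removed, then cells under 1000 UMIs or under 1250 (adherent) or 2250 (neurosphere) genes, thresholds taken from the study, which left 5051 and 4276 cells with 46290996 and 64943938 UMIs. Applied before gene removal, an alternative, the same thresholds kept 5073 and 4300 cells, the counts stated in the study. No doublet caller was run; cells of very high UMI count were left out as an alternative. The libraries shared 12 called barcodes. Levels are CPM over summed cells, with exact Poisson intervals; shares have exact Clopper-Pearson intervals, and ratios the exact conditional interval. Cells were thinned to 5000 UMIs without replacement. Clusters came from Seurat 5.3.0 (resolution 1, 17 and 18 principal components), with the 4 genes left out. With 1 library per culture no test was run. TMM factors came from edgeR 4.0.16. Positions come from GENCODE for GRCm38, which matched 32158 of 32285 gene IDs, and 1 of the 4 promoters was matched in RefSeq.

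The 4 genes and all gene lists were chosen with earlier results of these data known. Named genes are the 4, the 10 lowest by log2 ratio of CPM + 1 with at least 100 UMIs, up to 5 correlates each (r of at least 0.1), list genes and genes within 100 kb with at least 50 UMIs, and the 3 highest and lowest genes of the neurosphere cells that kept the 4. Some genes are not reported here and were left out of the neighbours and lists. The statistics were checked on simulated counts.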

Additional observations from a re-analysis of the deposited data

Results flagged for a closer look

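Barcodes that the cell filter removed, which entered only alternatives with another cell filter, still held UMIs of the 4 genes in the adherent library, above what a count of 0 allows (3 counts). In the 713 removed adherent barcodes Ly6a stood at 61.2 CPM (24 UMIs), Klk8 at 86.7 CPM (34 UMIs), Vgf at 96.9 CPM (38 UMIs) and Plscr2 at 66.3 CPM (26 UMIs). In the 675 removed neurosphere barcodes Ly6a had 0 UMIs and Klk8, Vgf and Plscr2 had 2 each, at or under 3 counts. The removed barcodes had median mitochondrial shares of 48.8% (adherent) and 87.0% (neurosphere).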

How the results depend on the processing

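No paired analysis was possible because the labels give no replicate numbers and each culture is 1 library, so no replicate could be left out either. All 4 genes fell under every alternative tried, with log2-fold changes of -10.29 to -6.87 for Ly6a, -6.63 to -5.87 for Klk8, -6.09 to -5.60 for Vgf and -5.43 to -4.99 for Plscr2. Fold changes and shares are listed here where they left their counting interval. Correlations, list counts, list medians and cluster levels are listed where they passed a set difference or ratio, or changed sign. The median of all genes is given beside them and did not move by that rule. Without cells over the 95th percentile of UMIs Klk8 was at -6.63. Ly6a was at -8.44 without its top neurosphere cell and at -10.29 without the 56 cells that reached the adherent 1st percentile of the falling genes, both chosen after seeing the data. With mitochondrial and ribosomal genes counted in the total, Plscr2 was at -4.99 and the median of all genes at 0.54, and TMM scaling put them at -5.43 and 0.11, against a median of 0.32 in the report. Thinned to 3000 UMIs, Ly6a, Klk8, Vgf and Plscr2 were detected in 9.82%, 16.6%, 12.2% and 24.7% of adherent and 0.0234%, 0.164%, 0.210% and 0.819% of neurosphere cells, at least 1 of them in 1.19% of neurosphere cells, and Vgf and Plscr2 correlated at -0.0933. Not thinned, the adherent shares were 19.1%, 34.8%, 24.4% and 47.9%, the neurosphere shares 0.842% for Klk8, 1.5% for Vgf and 2.88% for Plscr2, and 5.005% of neurosphere cells held at least 1 and 0.304% at least 2 of the genes. These shares follow the number of UMIs drawn. With mitochondrial and ribosomal genes in the total, 2 genes of the granin list, 5 scramblases or flippases and 1 interferon-stimulated gene were at least 2-fold higher, 1 scramblase or flippase and 1 activity-induced gene lower, and the median of the neuropsin substrates and inhibitors (0.0251) changed sign, as that of the neurotrophin list (-0.0268) did under TMM scaling. From 20 UMIs, 5 kallikreins were lower and 2 genes of the granin list higher, and from 200 UMIs 1 Ly6 gene and 1 neuropsin substrate or inhibitor were higher. At resolution 0.8 the highest adherent cluster had 90.5 CPM of Vgf and the highest neurosphere cluster 3.87 CPM of Ly6a, where the cell with 17 UMIs fell in a larger cluster. Without the cell with most UMIs of the gene, chosen after seeing the data, the highest neurosphere cluster had 1.34 CPM of Ly6a and 3.21 CPM of Klk8. The neurosphere counts of 28 to 194 UMIs limit what can be said of the cells that kept the genes.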
